A study of Mus musculus with 12 samples.

Results

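Genes of calcium release and uptake by the sarcoplasmic reticulum were followed in mouse hearts with altered Lemd2, a gene for a protein of the inner nuclear membrane. The 10 genes, Ryr1, Ryr2, Casq1, Casq2, Trdn, Hrc, Atp2a1, Atp2a2, Pln and Sln, were taken by symbol from a table of 24062 genes, and all 10 were in it. Polyadenylated RNA from whole hearts had been sequenced in 4 groups of 3 mice. Hearts of 2-month-old WT mice were compared with hearts of KI/KI mice of the same age, which carry the c.T38>G allele of Lemd2 on both chromosomes in every cell, a leucine-to-arginine change made by CRISPR-Cas9. At postnatal day 1 (P1), floxed mice, whose Lemd2 alleles carry loxP sites around the first exon, were compared with cKO mice, in which the same alleles were recombined by a Cre transgene under the Myh6 promoter, active in cardiomyocytes. Founders of both edited alleles were crossed to C57BL/6N mice. In cKO mice the deletion and the transgene come together and cannot be told apart, Lemd2 stays intact in the other cells of the heart, and the 2 models differ in age as well as in allele.

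The sarcoplasmic reticulum is the calcium store of striated muscle. In heart muscle, calcium entering through surface channels opens ryanodine receptors, which release the store. Calsequestrin, triadin and the histidine-rich calcium binding protein hold calcium near the channel and set how readily it opens. SERCA pumps return calcium to the store between beats and are held back by the small membrane proteins phospholamban and sarcolipin. Heart muscle uses RYR2, CASQ2 and SERCA2 (from Atp2a2), whereas fast skeletal muscle uses RYR1, CASQ1 and SERCA1 (from Atp2a1). Triadin and the histidine-rich protein are shared by both kinds of muscle, phospholamban is abundant in ventricle and sarcolipin in mouse atrium.

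Library totals ranged from 37063669 to 44789753 counts. Levels are given as CPM, counts scaled to a library of 1e+06 after correction by edgeR's TMM factors over all 12 hearts, and 3 counts corresponded to at most 0.0965 CPM. Floors and read totals cover counting error alone, and no pair of replicates held identical counts. Lemd2 itself was at 6.59, 13.1 and 11.3 CPM in cKO hearts beside 24.3, 25.0 and 25.4 CPM in their controls, and differed by -0.39 on the log2 scale in KI/KI hearts (standard error 0.06, edgeR adjusted p = 0.181). Lung markers summed to 99.8 CPM in WT 3, the highest of the 12 libraries, against 0.514 and 0.55 CPM in WT 1 and WT 2 and at most 42.7 CPM elsewhere. Of this sum in WT 3, Scgb1a1 alone made up 95.3 CPM and Sftpa1 3.86 CPM, whereas Sftpc and Cldn18 had 0 counts. The sum of adipose markers was also highest in WT 3, at 83.3 CPM. The heart cKO 4 was the single one of 12 with a high level of Xist, the RNA of the inactive X chromosome, at 612 CPM. Replicate numbers are those of the labels, and each library came from 1 mouse.

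Each pair of groups was compared by the quasi-likelihood test of edgeR, with Benjamini-Hochberg adjustment over the genes left after filterByExpr, which removes genes of low count. A gene was called at an adjusted p under 0.05. In cKO hearts 6 of the 9 genes tested were called, where 16.9% of all 15317 genes tested were called. Of these 5 fell, Atp2a2, Pln, Ryr2, Trdn and Hrc, where 7.57% of all genes fell, and Casq1 rose, where 9.32% of all genes rose. Without cKO 4 each of the 6 was called again, and without floxed 1 none was. With a fold change above 2 also required, Casq1 and Pln were called, against 4.64% of all genes. The median log2 fold change over the 9 genes was -0.59, beside -0.00 over all genes tested. In bulk RNA, fewer cells of a type and less RNA per cell cannot be told apart.

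In KI/KI hearts 0 of the 10 genes were called by edgeR, beside 0% of the 14592 genes tested, where the smallest adjusted p of any gene was 0.101. Casq1, Atp2a1, Ryr1 and Ryr2, or 4 of the 10, had an unadjusted p under 0.05, beside 16.2% of all genes. DESeq2 called 3 of them, Casq1, Atp2a1 and Ryr1, where it called 3.77% of all genes. The median log2 fold change over the 10 genes was -0.30, beside 0.00 over all genes. Groups did not overlap for 6 of the 10 genes, against 21.8% of all genes, and at P1 they did not overlap for 7 of the 9 tested, against 39% of all genes.

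**Figure D1:**
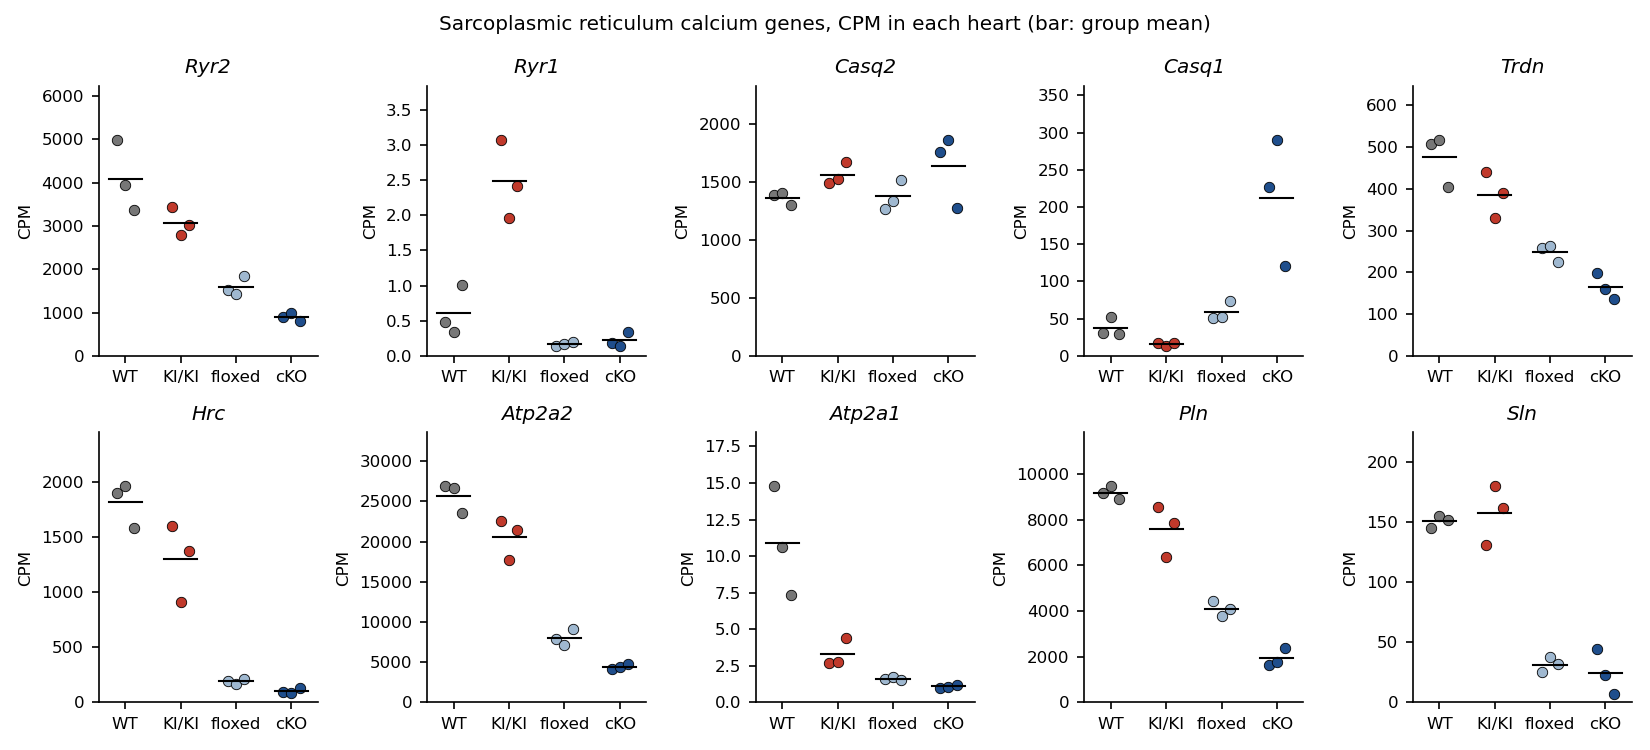
Level of each of the 10 genes in every heart, in CPM from 0 on the vertical axis, by group on the horizontal axis (3 mice each, bar at the group mean). Ryr2, Trdn, Hrc, Atp2a2 and Pln lay lower in all 3 cKO hearts than in any floxed heart, whereas Casq1 lay higher in every cKO heart and lower in every KI/KI heart than in its controls.

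Promoter sequences are shown for the genes on which the comparisons turn, the calsequestrin pair, whose skeletal member was called in cKO hearts and whose cardiac member was not, and Pln and Ryr2, which fell in cKO hearts. RefSeq starts on GRCm38.p6 gave a window for 7 of the 10 genes (Casq1, Casq2, Ryr1, Ryr2, Hrc, Atp2a1 and Pln). The bases just after the RefSeq start were found near the 5′ end of a GENCODE transcript for each of these genes except Casq1 and Hrc. Each line holds the 250 bases before the start on the strand of the gene, and capitals mark E boxes (CANNTG) and, in Casq2, also a MEF2 box, searched on both strands. The windows are chr1:172219896-172220145 (minus strand) for Casq1, chr3:102086165-102086414 (plus) for Casq2, chr10:53337436-53337685 (plus) for Pln and chr13:12106946-12107195 (minus) for Ryr2.
Casq1: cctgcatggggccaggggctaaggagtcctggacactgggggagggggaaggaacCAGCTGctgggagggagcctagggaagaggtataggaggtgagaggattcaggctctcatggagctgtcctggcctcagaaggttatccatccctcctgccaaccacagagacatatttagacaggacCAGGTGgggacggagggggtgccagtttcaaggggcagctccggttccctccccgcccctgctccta
Casq2: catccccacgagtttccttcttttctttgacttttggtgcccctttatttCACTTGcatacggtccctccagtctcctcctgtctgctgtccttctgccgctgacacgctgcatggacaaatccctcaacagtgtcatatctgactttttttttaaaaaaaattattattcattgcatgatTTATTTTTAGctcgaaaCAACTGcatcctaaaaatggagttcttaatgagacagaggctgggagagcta
Pln: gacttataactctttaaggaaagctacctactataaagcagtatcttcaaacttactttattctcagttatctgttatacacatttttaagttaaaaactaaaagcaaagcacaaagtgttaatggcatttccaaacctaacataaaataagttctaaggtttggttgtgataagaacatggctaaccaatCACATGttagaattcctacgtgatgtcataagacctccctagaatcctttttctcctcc
Ryr2: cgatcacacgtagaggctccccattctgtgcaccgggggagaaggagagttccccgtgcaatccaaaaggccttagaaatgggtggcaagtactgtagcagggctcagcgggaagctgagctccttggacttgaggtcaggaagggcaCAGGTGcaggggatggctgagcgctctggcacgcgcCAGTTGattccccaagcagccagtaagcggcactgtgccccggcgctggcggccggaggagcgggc

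An E box, the site read by myogenic and other bHLH factors, was found in 6 of the 7 windows and in 66.2% of 32851 windows of this length. Casq1, Casq2 and Ryr2 held 2 each, Pln, Hrc and Atp2a1 held 1 each, and Ryr1 held none. A MEF2 box was found in 1 of 7, that of Casq2, and in 2.92% of all windows. The MCAT motif (CATTCC) and the CArG box were found in 0 of 7, and in 12.6% and 1.47% of all windows. These matches describe letters in the windows and not binding.

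Of the release channel genes, the cardiac one was called in cKO hearts and the skeletal one was too low there to test. Ryr2 (chr13:11553102-12106945, minus strand, with gene positions on GRCm38 throughout), the cardiac channel, was at 4986, 3938 and 3364 CPM in WT hearts and at 3431, 2791 and 3019 CPM in KI/KI hearts. The highest KI/KI heart lay above the lowest WT heart, and the log2 fold change of -0.41 (standard error 0.16) was not called (edgeR adjusted p = 0.299). At P1, floxed hearts held Ryr2 at 1531, 1420 and 1852 CPM and cKO hearts at 906, 997 and 809 CPM, so that every cKO heart lay below every floxed heart. Ryr2 fell by 0.82 on the log2 scale (standard error 0.13, edgeR adjusted p = 0.0114). Without floxed 1 the value was -0.86 with an adjusted p of 0.0636.

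Ryr1 (chr7:29003344-29125179, minus), the channel of skeletal muscle, was the lowest of the 10 genes per length in every group. It had 15, 11 and 37 counts in WT hearts and 103, 81 and 86 counts in KI/KI hearts, or 0.482, 0.336 and 1.01 CPM against 3.07, 1.96 and 2.42 CPM. All 3 KI/KI hearts lay above all WT hearts. The log2 fold change of Ryr1, 1.98 (standard error 0.38), had an edgeR adjusted p of 0.193 and a DESeq2 adjusted p of 0.00143. Among the WT hearts the highest value was that of WT 3. That library had the highest sum of lung markers (99.8 CPM, mostly Scgb1a1, against 34.9 CPM in KI/KI 4). Of the fast skeletal muscle genes, it held Myh4 at 130 counts, against 2 and 3 in WT 1 and WT 2. Myh1 was at 34 counts there, against 2 and 2. Myh2, Mylpf, Tnnt3, Tnnc2, Actn3 and Pvalb were also highest in WT 3 among the WT hearts. Mybpc2 and Tnni2 were lowest there, and Myh3, Myh8 and Mylk2 lay between WT 1 and WT 2. The part of such RNA in the Ryr1 counts was not tested. Without WT 3 the log2 fold change of Ryr1 was 2.60, again not called. At P1 it had 6, 8 and 9 counts in floxed hearts against 9, 7 and 14 counts in cKO hearts, which overlapped, and it did not pass the filter on low counts. A non-coding gene on the opposite strand, Gm26604, shares 864 bases, or 3.96%, of the exons of Ryr1, and the strand setting of the counting is not given in the sources used here.

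Of the calsequestrin genes, the cardiac one was called in neither model and the skeletal one in cKO hearts. Casq2 (chr3:102086415-102146514, plus), the main calcium store protein of the heart, was at 1385, 1399 and 1300 CPM in WT hearts and at 1486, 1526 and 1667 CPM in KI/KI hearts. The groups did not overlap, but the difference was small, a log2 fold change of 0.20 (standard error 0.08, edgeR adjusted p = 0.31). At P1, floxed hearts held Casq2 at 1268, 1337 and 1518 CPM, and cKO hearts at 1758, 1858 and 1277 CPM. The hearts cKO 4 and cKO 5 lay above all floxed hearts and cKO 6 lay among them, and the log2 fold change of 0.25 (standard error 0.16) was not called (edgeR adjusted p = 0.309). Without cKO 6 it was 0.40 and was called, at an adjusted p of 0.0337.

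Casq1 (chr1:172209894-172219868, minus), the calsequestrin of fast skeletal muscle, was the single gene of the set called higher in cKO hearts. It was at 30.3, 51.9 and 29.9 CPM in WT hearts and at 16.7, 14.0 and 17.7 CPM in KI/KI hearts. Every KI/KI heart lay below every WT heart, with a log2 fold change of -1.21 (standard error 0.23), an edgeR adjusted p of 0.193 and a DESeq2 adjusted p of 8.6e-05. In floxed hearts Casq1 was at 50.9, 52.8 and 73.4 CPM, and in cKO hearts it was at 227, 290 and 121 CPM. All cKO hearts lay above all floxed hearts, and Casq1 rose by 1.85 on the log2 scale, or 3.62-fold (standard error 0.32, edgeR adjusted p = 0.0143). A non-coding gene on the opposite strand, Gm17224, not analysed here, shares 156 of its exon bases, or 7.996%. The cKO hearts spread widely in Casq1, with an SD of 85.5 CPM about a mean of 213 CPM (n = 3). Left-out hearts moved the adjusted p past the threshold for floxed 1 (0.0864), floxed 2 (0.0672) and cKO 5 (0.0505), with log2 fold changes of 1.75, 1.77 and 1.58.

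Trdn and Hrc code for proteins that tie the store to the channel, triadin as an anchor of calsequestrin and the histidine-rich protein as a calcium buffer that binds both triadin and the pump. Trdn (chr10:33080554-33476709, plus) was at 508, 517 and 405 CPM in WT hearts and at 439, 330 and 390 CPM in KI/KI hearts, which overlapped, with a log2 fold change of -0.30 (standard error 0.13, edgeR adjusted p = 0.322). In P1 hearts it was at 259, 263 and 225 CPM with floxed alleles and at 198, 161 and 136 CPM with the deletion, with no overlap. Trdn fell by 0.59 on the log2 scale in cKO hearts (standard error 0.16, edgeR adjusted p = 0.0458). That call was the closest to the threshold of the 6, and it was lost without floxed 1 (adjusted p = 0.153), floxed 2 (0.127), floxed 3 (0.0621) or cKO 5 (0.149).

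Hrc (chr7:45335290-45338974, plus) was at 1902, 1957 and 1577 CPM in WT hearts and at 1601, 911 and 1377 CPM in KI/KI hearts. The groups touched at WT 3 and KI/KI 4, and the log2 fold change of -0.48 (standard error 0.21) was not called (edgeR adjusted p = 0.315). In floxed hearts Hrc was at 194, 170 and 209 CPM and in cKO hearts at 90.4, 83.0 and 134 CPM, with no overlap. Hrc fell by 0.91 on the log2 scale (standard error 0.18, edgeR adjusted p = 0.0194). The call was lost without floxed 1 (adjusted p = 0.0917), floxed 2 (0.0558), floxed 3 (0.0533) or cKO 5 (0.0687), and with the Y-linked level, which separates cKO 4 from the other hearts, as a covariate (0.0511).

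On the uptake side, the cardiac pump gene Atp2a2 (chr5:122453513-122502225, minus) was the most abundant transcript of the set in adult hearts. It was at 26861, 26693 and 23541 CPM in WT hearts and at 22621, 17764 and 21502 CPM in KI/KI hearts. The groups did not overlap, yet the log2 fold change of -0.31 (standard error 0.15) was not called (edgeR adjusted p = 0.351). In floxed hearts Atp2a2 was at 7890, 7098 and 9117 CPM and in cKO hearts at 4133, 4376 and 4760 CPM, the tightest cKO group of the 6 called genes, with an SD of 7.15% of the mean. Atp2a2 fell by 0.86 on the log2 scale, to 0.55 of the floxed level (standard error 0.12, edgeR adjusted p = 0.00825). Without floxed 1 the adjusted p was 0.0541 at a log2 fold change of -0.88.

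Atp2a1 (chr7:126445858-126463108, minus), the pump of fast skeletal muscle, was low in all groups. It was at 14.8, 10.6 and 7.37 CPM in WT hearts and at 2.71, 2.78 and 4.41 CPM in KI/KI hearts, with every KI/KI heart below every WT heart. The difference was -1.71 on the log2 scale (standard error 0.30), at an edgeR adjusted p of 0.181 and a DESeq2 adjusted p of 1.4e-05. In floxed hearts Atp2a1 was at 1.58, 1.72 and 1.54 CPM and in cKO hearts at 0.998, 1.08 and 1.22 CPM, a difference of -0.56 on the log2 scale (standard error 0.20) that was not called (edgeR adjusted p = 0.093). The 3′ end of Rabep2, a protein-coding gene on the opposite strand, shares 763 bases, or 21.9%, of the exons of Atp2a1. Rabep2 was at 8.84 to 9.30 CPM in WT, 8.80 to 10.98 in KI/KI, 11.30 to 12.13 in floxed and 11.29 to 11.98 in cKO hearts, and its part in the low counts of Atp2a1 was not tested.

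Pln (chr10:53337667-53345987, plus), which codes for phospholamban, the brake on SERCA2, had the largest fall of the 5 genes that fell at P1. It was at 9151, 9452 and 8887 CPM in WT hearts and at 8568, 6344 and 7875 CPM in KI/KI hearts, without overlap but with a log2 fold change of -0.27 (standard error 0.14) that was not called (edgeR adjusted p = 0.38). In floxed hearts Pln was at 4441, 3800 and 4076 CPM and in cKO hearts at 1620, 1787 and 2381 CPM, well apart. Pln fell by 1.10 on the log2 scale (standard error 0.15, edgeR adjusted p = 0.00825), and without floxed 1 the adjusted p was 0.0536. Exons of Cep85l, which Pln lies within on the opposite strand, overlap 5.11% of its exon bases, and those of the non-coding gene Gm47644, not analysed here, overlap 59.6%. Cep85l itself was at most 15.5 CPM in any WT heart.

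Sln (chr9:53850164-53854560, plus), the sarcolipin gene, overlapped between genotypes in both models. It was at 145, 155 and 152 CPM in WT hearts and at 131, 179 and 161 CPM in KI/KI hearts, and the log2 fold change of 0.07 (standard error 0.12) was not called (edgeR adjusted p = 0.792). In floxed hearts Sln was at 24.8, 37.3 and 31.8 CPM. In cKO hearts it was at 44.7, 23.1 and 6.59 CPM, a spread of 77.1% of the mean, with cKO 4 above and cKO 6 below every floxed heart. The log2 fold change of -0.32 had a standard error of 0.58 (edgeR adjusted p = 0.727), and without cKO 6 it was 0.12.

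Beside Sln stood Myl7, the light chain gene of atrial myosin. Myl7 was at 904, 574 and 118 CPM in the cKO hearts and at 347, 606 and 530 CPM in the floxed hearts. Bmp10, another atrial gene, was at 176, 75.4 and 22.6 CPM in the cKO hearts and at 28.7, 34.1 and 43.8 CPM in the floxed hearts. Within each P1 group the hearts stood in the same order for Sln and for Myl7. Of the other atrial markers, Myl4, Nppa, Kcnj3 and Dkk3 kept that order in both P1 groups, Bmp10 in cKO hearts alone and Sbk2 in neither. The ratio of Sln to Myl7 counts, chosen after these values were seen, was 0.0716, 0.0616 and 0.06 in floxed hearts against 0.0494, 0.0402 and 0.0558 in cKO hearts, with no overlap and a log2 difference of -0.42 (exact two-sided permutation test, p = 0.10, the smallest that 3 against 3 hearts allow). In adults the ratio was 0.216 to 0.249 in WT and 0.247 to 0.259 in KI/KI hearts (exact permutation p = 0.20). How much of each heart was atrium was not measured, and its part in the level of Sln was not tested.

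**Figure D2:**
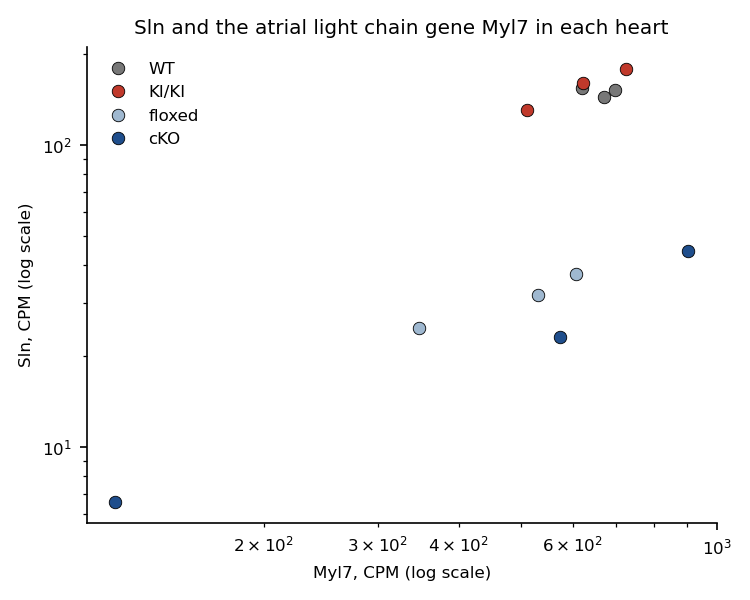
Level of Sln (vertical axis) against Myl7 (horizontal axis), both in CPM on log scales, with 1 point for each of the 12 hearts, coloured by group. The 6 adult hearts sit above 100 CPM of Sln, and the heart with the lowest Myl7, cKO 6 at 118 CPM, has the lowest Sln, 6.59 CPM.

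**Figure D3:**
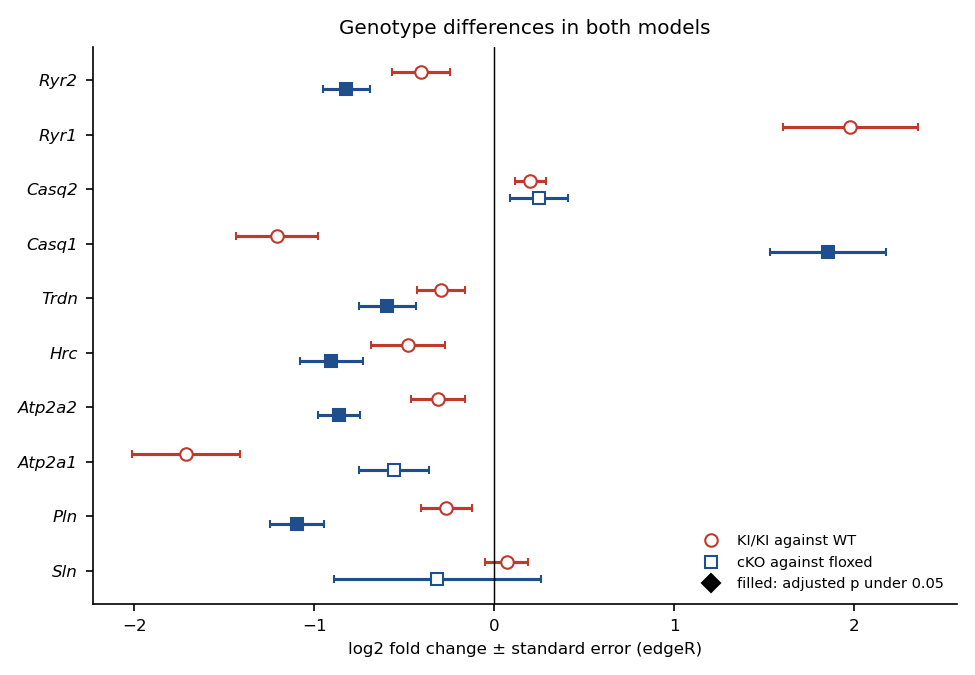
Log2 fold change of each gene (horizontal axis, bars: standard error of edgeR's estimate) in KI/KI against WT hearts (circles) and cKO against floxed hearts (squares), 3 hearts in each group, with filled symbols for an adjusted p under 0.05. Casq1 lies at -1.21 in KI/KI and at 1.85 in cKO hearts, on opposite sides of 0. Ryr1 has no square because it did not pass the filter at P1.

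Whether the cardiac and skeletal isoforms moved alike was asked with the log2 ratio of their counts within a heart, which needs no library scaling, by exact two-sided permutation tests adjusted over 10 tests (5 ratios in each model). The exact permutation test of 3 against 3 hearts cannot give less than p = 0.10, and the smallest adjusted p here was 0.20. Casq1 had 2.19, 3.71 and 2.30 counts per 100 counts of Casq2 in WT hearts and 1.13, 0.915 and 1.06 in KI/KI hearts, a difference of -1.37 on the log2 scale (exact permutation p = 0.10, adjusted p = 0.20). The same ratio was 4.01, 3.95 and 4.84 per 100 in floxed hearts against 12.9, 15.6 and 9.47 in cKO hearts, a difference of 1.55 (exact permutation p = 0.10, adjusted p = 0.20). Groups were apart in both models and in opposite directions.

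Atp2a1 had 0.549, 0.398 and 0.313 counts per 1000 counts of Atp2a2 in WT hearts and 0.12, 0.157 and 0.205 in KI/KI hearts, a log2 difference of -1.38 with no overlap (exact permutation p = 0.10, adjusted p = 0.20). At P1 the ratio was 0.2, 0.242 and 0.168 per 1000 in floxed hearts against 0.242, 0.248 and 0.255 in cKO hearts, whose ranges touched, with a log2 difference of 0.30 (exact permutation p = 0.20, adjusted p = 0.286). Ryr1 per 1000 counts of Ryr2 was 0.0967, 0.0853 and 0.299 in WT hearts against 0.894, 0.702 and 0.801 in KI/KI hearts, a log2 difference of 2.56. Both P1 groups were low, 0.0884, 0.122 and 0.104 in floxed hearts against 0.198, 0.146 and 0.42 in cKO hearts, a log2 difference of 1.15 that rests on at most 14 counts of Ryr1 in a heart. Both differences had an exact permutation p of 0.10 and an adjusted p of 0.20.

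Ratios of inhibitor to pump overlapped between the groups of each model. Pln had 34.1, 35.4 and 37.8 counts per 100 of Atp2a2 in WT hearts and 37.9, 35.7 and 36.6 in KI/KI hearts (log2 difference 0.04, exact permutation p = 0.40, adjusted p = 0.444). It had 56.3, 53.5 and 44.7 per 100 in floxed and 39.2, 40.8 and 50.02 in cKO hearts, which overlapped (log2 difference -0.25, exact permutation p = 0.20, adjusted p = 0.286). Sln per 1000 counts of Atp2a2 was 5.39, 5.79 and 6.45 in WT, 5.78, 10.1 and 7.50 in KI/KI, 3.15, 5.26 and 3.49 in floxed and 10.8, 5.27 and 1.38 in cKO hearts. Its log2 differences were 0.37 in adults (exact permutation p = 0.30, adjusted p = 0.375) and 0.15 at P1 (exact permutation p = 0.90, adjusted p = 0.90), where it turned to -0.52 without cKO 4.

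**Figure D4:**
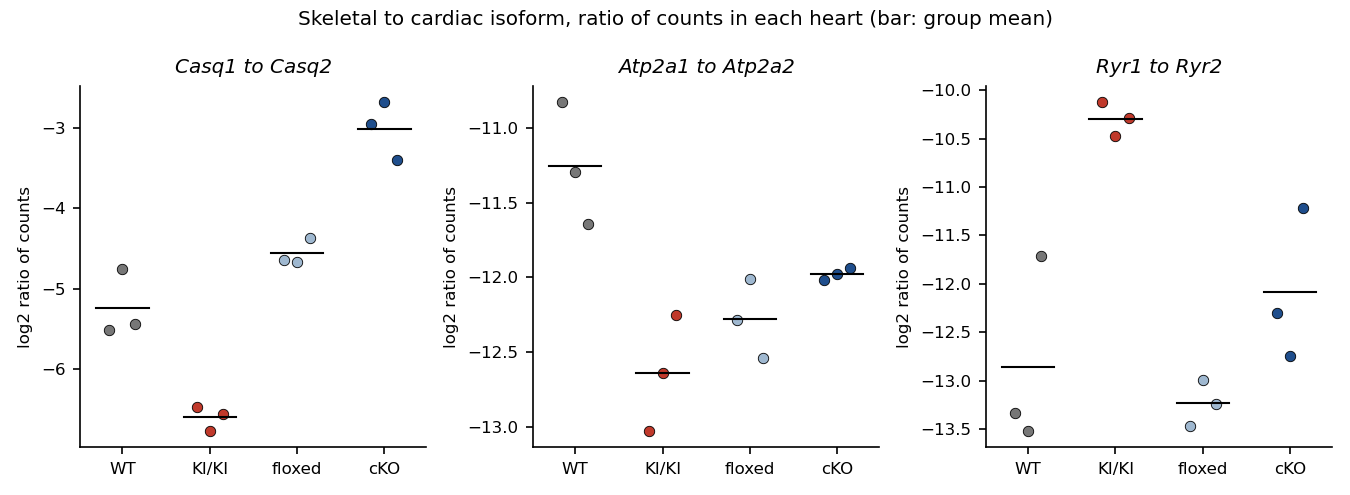
Log2 ratio of the counts of the skeletal to the cardiac isoform in each heart (vertical axes, a separate range for each pair) by group (3 hearts each, bar at the mean). Casq1 to Casq2 is lower in every KI/KI heart and higher in every cKO heart than in its controls, whereas Ryr1 to Ryr2 is higher in both mutants. At P1 the Ryr1 to Ryr2 ratio rests on 6 to 14 counts of Ryr1 in a heart. Ryr1 itself overlapped between the P1 groups, and Ryr2 fell in cKO hearts.

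Levels can be set against each other between genes once they are divided by length, here CPM per kilobase of annotated exons. In WT hearts the order was Atp2a2 (4226 ± 308 CPM per kilobase, SD, n = 3), Pln (3321 ± 103), Hrc (706 ± 79.9), Casq2 (498 ± 19.6), Ryr2 (142 ± 28.6), Sln (114 ± 3.90), Trdn (51.0 ± 6.64), Casq1 (19.2 ± 6.46), Atp2a1 (3.14 ± 1.06) and Ryr1 (0.0279 ± 0.0161), and of the neighbours Ryr2 and Sln alone overlapped. In floxed hearts Pln (1488 ± 117) and Atp2a2 (1321 ± 167) overlapped at the top and Hrc stood at 74.5 ± 7.68. In cKO hearts Atp2a2 (727 ± 52.0), Pln (699 ± 145) and Casq2 (596 ± 114) overlapped with each neighbour, and Casq1, at 109 ± 43.8 CPM per kilobase, stood at rank 4, against rank 6 at 30.3 ± 6.41 in floxed hearts.

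Casq1 made up 3.68% ± 1.10 (SD, n = 3) of the 2 calsequestrin transcripts per length in WT hearts, 1.43% ± 0.148 in KI/KI hearts, 5.64% ± 0.616 in floxed hearts and 15.01% ± 3.13 in cKO hearts. The skeletal pump and channel stayed at or below 0.0734% of their pairs in the mean of each group, apart from Ryr1 in KI/KI hearts at 0.105% ± 0.0126. No stretch of 30 bases is shared by annotated Casq1 and Casq2 transcripts, and 0.432% of those of Atp2a1 occur in Atp2a2 and 0.0274% of those of Ryr1 in Ryr2.

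The cKO effect minus the KI/KI effect, tested in a fit of all 12 hearts, was called in 1 of the 10 genes, beside 2.43% of the 15729 genes tested. That gene was Casq1, with a difference of 3.07 on the log2 scale (standard error 0.44, edgeR adjusted p = 0.0116). Pln came next with -0.82 (standard error 0.22, edgeR adjusted p = 0.0732), and Atp2a2 (-0.54, adjusted p = 0.153) and Atp2a1 (1.17, adjusted p = 0.156) followed. DESeq2 called 4 of the 10, these 3 and Casq1, where it called 9.46% of all genes. Age and allele both differ between the models and cannot be told apart in this difference.

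**Figure D5:**
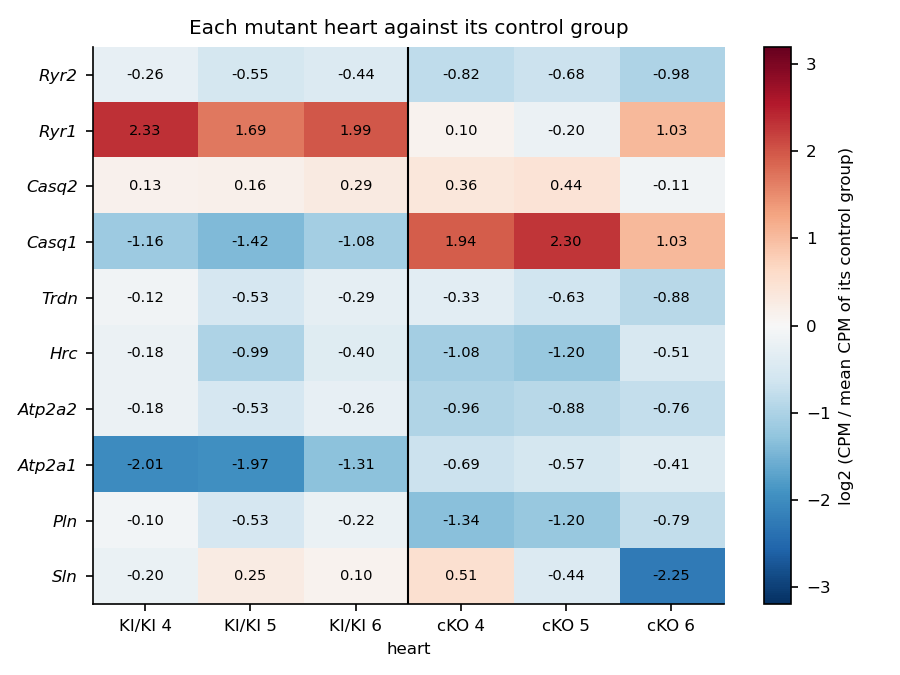
Log2 ratio of the CPM of each mutant heart to the mean of its control group (colour and printed value), by gene (rows) and heart (columns). Ryr2, Trdn, Hrc, Atp2a1, Atp2a2 and Pln are below 0 in all 6 mutant hearts, whereas Casq1 is between -1.42 and -1.08 in the KI/KI hearts and between 1.03 and 2.30 in the cKO hearts.

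The control groups, 2-month-old WT against P1 floxed hearts, differed in 9 of the 10 genes, beside 65.2% of the 15183 genes tested, so that a difference at this contrast was common to most genes, and age and the floxed allele cannot be told apart. The 8 genes called higher in the adult hearts were Hrc by 3.24 on the log2 scale (standard error 0.12, edgeR adjusted p = 6.3e-07), Atp2a1 by 2.74, Sln by 2.26, Ryr1 by 1.87, Atp2a2 by 1.67, Ryr2 by 1.35, Pln by 1.15 and Trdn by 0.93. Casq1 was lower, at -0.67 (standard error 0.25, edgeR adjusted p = 0.0465), with overlapping groups, and Casq2 was at -0.02 and not called (adjusted p = 0.855). The call of Casq1 was lost in 10 of 17 alternative fits. Pln and Atp2a2 were at 2.22-fold and 3.18-fold the P1 level in adults.

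Other genes of the pathway were taken from lists. Of 9 release partners, 3 rose in cKO hearts, beside 9.32% of all genes, the channel-binding genes Fkbp1a (log2 fold change 0.50, edgeR adjusted p = 0.0207) and Fkbp1b (0.93, adjusted p = 0.0241) and the sorcin gene Sri (0.42, adjusted p = 0.0492), and the median over the 9 was 0.39. Fkbp1b, the FKBP of the cardiac channel, was at 1.94, 2.19 and 1.66 CPM in floxed and 3.95, 3.90 and 3.16 CPM in cKO hearts. Of 10 uptake and reticulum partners tested, Calr, a calcium-binding chaperone, rose by 0.55 (adjusted p = 0.0166) and the median was -0.05. This 1 of 10 was near the 9.32% of all genes that rose. In KI/KI hearts, where edgeR called no gene, the medians of these lists were 0.22 and -0.07. DESeq2 called Sri there (0.25, adjusted p = 0.0378), where it called 3.77% of all genes.

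Of 14 genes of calcium entry and exit at the surface, 3 fell in cKO hearts, beside 7.57% of all genes, and 1 rose, beside 9.32%, and the median was 0.03. Cacna1c, the pore of the cardiac L-type channel, fell by 0.75 on the log2 scale (edgeR adjusted p = 0.00945) and its accessory subunit gene Cacnb2 fell by 0.47 (adjusted p = 0.0348). Cacna1d, the L-type pore of atrium and pacemaker, fell by 1.44 (adjusted p = 0.00727). Floxed hearts held Cacna1d at 40.4, 40.7 and 32.0 CPM, and cKO hearts at 15.1, 16.0 and 10.6 CPM. Sypl2, a gene of the skeletal muscle triad, rose by 1.93 (adjusted p = 0.00688), from 2.48, 3.11 and 3.82 CPM to 8.72, 12.2 and 15.2 CPM. The median of these 14 in KI/KI hearts was 0.00.

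In the control groups, 7 of 9 release partners were called, 3 higher and 4 lower in adults, 8 of 11 uptake partners, 6 higher and 2 lower, and 8 of 14 surface genes, 4 in each direction, beside 65.2% of all genes. Jph2, which holds the surface and reticulum membranes together, was higher in adult WT hearts by 1.37 on the log2 scale and Jph1 by 1.21. Fkbp1b (-1.48) and Sri (-0.62) were lower. Among the uptake partners, S100a1, a modulator of both the pump and the channel, was higher by 1.83. The counter-ion channel gene Tmem38a was higher by 1.74, and Ppp1r1a was lower, at -2.61. Cacna1s, the skeletal L-type pore, was higher by 5.19, and Slc8a1, the sodium-calcium exchanger gene, was lower, at -1.15.

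Marker lists were read for cells that could carry the skeletal isoforms. Fast skeletal muscle markers other than the genes above summed to 34.1 to 48.7 CPM in WT, 26.0 to 46.4 in KI/KI, 17.0 to 25.7 in floxed and 39.4 to 61.6 CPM in cKO hearts, of which Mybpc2 made up 25.5 to 42.4 CPM in WT hearts. Of 11 tested at P1, 9 had a log2 fold change above 0 in cKO hearts, as Casq1 had, with a median log2 fold change of 0.75, beside -0.00 over all genes. Of these 11, 1 rose, Myh1 (2.01), and 1 fell, Tnni2 (-1.22), beside 16.9% of all genes called. Mybpc2 (2.00), Mylpf (1.14), Tnnc2 (0.87), Myh8 (0.80) and Tnnt3 (0.75) were higher without being called, and Actn3 (-0.83) was lower without being called. Mylk2 (0.16), Pvalb (0.07) and Myh3 (0.04) lay near 0. In cKO 4, 5 and 6, Mybpc2 was at 7.13, 15.3 and 44.4 CPM and Myh1 at 0.739, 1.21 and 0.608 CPM. Casq1 was at 227, 290 and 121 CPM in the same hearts. Tnnc2, Mylk2 and Pvalb had at most 22 counts in any P1 heart. Myh8, a developmental myosin, was at 5.48, 11.8 and 9.96 CPM in floxed and 21.7, 13.5 and 12.2 CPM in cKO hearts, and Mylpf reached 2.77 CPM and Tnnt3 5.63 CPM in cKO 4. In KI/KI hearts 5 of 8 were lower, with a median of -0.21 and 0 called by edgeR. DESeq2, which called 3.77% of all genes, gave no adjusted p for Mylk2 and Pvalb. It called Tnni2 lower (-1.61, adjusted p = 0.0104) and Myh8 higher (2.11, adjusted p = 0.0134). Of the defining genes of adult fast fibres, Myh4 and Pvalb were at or below 0.141 and 0.458 CPM in every heart other than WT 3, at 3.54 and 1.20 CPM, and Myh1 was at most 1.21 CPM, in cKO 5. Cardiomyocyte markers had a median of -0.15 in KI/KI hearts (8 of 9 lower, 0 called) and of -0.24 in cKO hearts (5 of 9 lower and 4 higher). In cKO hearts 2 of the 9, Tnni3 and Ttn, fell, beside 7.57% of all genes. Ventricular markers fell in 2 of 3 cases at P1 (Hey2 and Irx4), and slow skeletal markers in 1 of 4 (Tnni1), beside the same 7.57%.

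Of 7 atrial markers at P1, Nppa rose and Sbk2 fell, of 6 smooth muscle markers Tagln and Cnn1 rose and Myh11 fell, and of the 3 lung markers and 1 adipose marker tested 0 were called, beside 16.9% of all genes. In KI/KI hearts DESeq2 called Sbk2 (-0.84, adjusted p = 0.000227) and the smooth muscle gene Smtn (-0.22, adjusted p = 0.0100) lower, beside 3.77% of all genes called. Scaled to the cardiomyocyte markers instead, which put the median of all genes at 0.16 in KI/KI and 0.14 in cKO comparisons, against 0.00 and -0.00 with TMM, 5 of the 6 calls in cKO hearts stayed and that of Trdn did not (-0.45, edgeR adjusted p = 0.174). The part of these markers in the differences of the 10 genes was not tested.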

How the data were processed

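Heart RNA from 12 mice was analysed, 3 in each of 4 groups, grouped by genotype and age as the labels give them. Per the submitters' notes and methods, adapters were cut by Trim Galore, STAR 2.7.2b placed reads on mm10 and HTSeq assigned them to genes. The authors deposited the raw counts, with no normalization. The strand setting of the counting is not given in the sources used here, so reads of overlapping genes on opposite strands may not be told apart.

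Counts were tested in R 4.3.3 with edgeR 4.0.16 (TMM, filterByExpr, robust quasi-likelihood test, Benjamini-Hochberg adjustment over all genes tested). Standard errors are the log2 fold change over the root of the test statistic. Levels are CPM with TMM over 12 libraries. Ratios of counts were compared by exact permutation tests. Alternatives were DESeq2 1.42.0, limma-voom (limma 3.58.1), other scalings, filters and dispersions, a Y-linked covariate, a replicate block and each library left out. Scaling to cardiomyocyte markers and the ratio of Sln to Myl7 were added after seeing the data. Scripts were tested on simulated data. Positions and exon lengths are from GENCODE M21 (GRCm38) and promoters from RefSeq (GRCm38.p6).

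The 10 genes and the gene lists were chosen with earlier results of these data known. Named genes are the 10, up to 4 called genes with the smallest p in each list and comparison, Lemd2, and genes given beside a result. P-values measure the spread between the 3 mice of a group.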

Additional observations from a re-analysis of the deposited data

Results flagged for a closer look

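Casq1 differed between the models: the cKO effect minus the KI/KI effect was 3.07 on the log2 scale (standard error 0.44, edgeR adjusted p = 0.0116), with 3 of 3 cKO hearts above every floxed heart and 3 of 3 KI/KI hearts below every WT heart. The ratio of Casq1 to Casq2 moved in the same opposite ways, with a log2 difference of 1.55 in cKO hearts and -1.37 in KI/KI hearts, and the difference between these 2 values was not tested.

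Cacna1d also differed between the models, by -1.87 (standard error 0.28, edgeR adjusted p = 0.0116). It fell by 1.44 in cKO hearts, whereas its log2 fold change in KI/KI hearts was 0.44 and not called. Sypl2 differed by 1.91 (standard error 0.42, edgeR adjusted p = 0.0418), with a log2 fold change of 1.93 in cKO and of 0.03 in KI/KI hearts. Groups of 3 hearts are too small for the test of a single outlying heart.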

How the results depend on the processing

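In KI/KI hearts the number of the 10 genes called was 0 in edgeR, 3 with DESeq2 and 2 with all 12 libraries in one fit (Atp2a1, adjusted p = 0.0311, and Ryr1, 0.0427), and 0 with each heart left out. Of all genes, 529 of 14021 were called with DESeq2 and 48 of 15729 in the one fit. With a heart left out, at most 56 of all genes were called, without KI/KI 4. In cKO hearts the number of the 10 genes called was 6, of 2587 called in all, and 2 with a fold change above 2 required, of 710. With a heart left out it ranged from 0 (without floxed 1, where 160 of all genes were called) to 7 (without cKO 6, where 3463 were). It was 3 without floxed 2, of 668 genes called in all, and 3 without cKO 5, of 542. Between the models it was 1, with 4 under DESeq2, 2 under upper quartile scaling (Pln, adjusted p = 0.0465) and 2 when scaled to cardiomyocyte markers (Atp2a2, 0.0324). Genes called in all were 383 in the main fit, 1343 under DESeq2, 463 under upper quartile scaling and 54 when scaled to cardiomyocyte markers. With a heart left out the number of the 10 genes called ranged from 1 to 2. Pln was also called without KI/KI 5, of 325 genes called in all, or without cKO 6, of 924. The number in control groups was 9, of 9897 genes called in all, and stayed from 7 to 9 in all alternatives. Genes called in all there ranged from 4132, with a fold change above 2 required, to 11786, scaled to cardiomyocyte markers. Scaling to cardiomyocyte markers, which put the median of all genes at -0.78 there, against -0.042 with TMM, called Casq2 lower (-0.76) and no longer called Ryr1 or Trdn. The causes of these changes were not tested.

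With the replicate number as a block, the count between the models was 0, of 0 genes called in all (Casq1 2.95, adjusted p = 0.0711), and in control groups it was 8. Deviations of same-numbered hearts correlated at -0.26, -0.28 and -0.56 for WT and floxed and at 0.26, 0.21 and 0.08 for KI/KI and cKO, so the replicate block pairs numbers and not animals.

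Directions turned for values near 0. With a heart left out, Sln ranged from -0.041 (without KI/KI 5) to 0.18 in KI/KI hearts, from -1.08 to 0.12 (without cKO 6) in cKO hearts and from -1.13 to 0.058 (without cKO 6) between the models, and Casq2 from -0.047 (without cKO 5) to 0.21 between the models and from -0.079 to 0.066 (without floxed 3) in control groups. Casq2 was at -0.013 between the models with upper quartile scaling, and in control groups at 0.0066 with DESeq2 and 0.0065 with RLE size factors. Of the 80 alternatives for ratios, 79 kept their direction. The exception was Sln to Atp2a2 in cKO hearts, which ranged from -0.52 to 0.96 with a heart left out. Lengths of the longest transcript moved the share of Ryr1 by more than its SD in KI/KI and floxed hearts and that of Atp2a1 in cKO hearts, from 0.0434% to 0.0405%. They also put Casq1 at rank 7 in floxed hearts and Pln above Atp2a2 in cKO hearts. At 6 to 14 counts, Ryr1 could not be tested at P1.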
